A study of Rattus norvegicus with 2 samples.

Results

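The miR-29 family consists of miRNAs that share 1 seed, the stretch of a miRNA that pairs with its target mRNAs, and differ in the rest of the sequence. Its members were chosen by probe name as rno-miR-29a, rno-miR-29b and rno-miR-29c, which are 3 of the 349 rat miRNA names on the arrays. The passenger strands of the same hairpins, whose names end in an asterisk, are not members. The study asked which miRNAs of the nucleus accumbens (NAc), a region of the ventral striatum that takes part in reward, differ after repeated alcohol. It used 18 adult male Sprague-Dawley rats weighing 150 to 180 g. Rats of the vehicle group received 500 µl of saline and rats of the alcohol group received alcohol at 1 g/kg, both by intraperitoneal injection 2 times a day for 7 days. The NAc, core and shell together, was then taken, and small RNA was labelled with Cy3 and hybridized to 1 array for each group. How the RNA of the rats was combined on an array is not given in the sources used here.

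A mature miRNA guides an Argonaute protein to mRNAs that match its seed and lowers their stability or translation. The miR-29 family is known for targeting mRNAs of collagens, of the de novo DNA methyltransferases and, in maturing neurons, of cell death genes of the BH3-only class. In the brain its level is known to rise as neurons mature.

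The 3 members are shown because they differ by few bases, which sets how alike their probes are. The sequences are the targets listed for the array probes, and each is identical to a mature miRNA in RefSeq (GRCr8). They are written 5′ to 3′ with the seed, bases 2 to 8, in capitals.
rno-miR-29a: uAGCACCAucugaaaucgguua
rno-miR-29b: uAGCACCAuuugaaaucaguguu
rno-miR-29c: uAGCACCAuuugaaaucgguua
The seed AGCACCA occurred at these bases in 3 of the 349 listed targets, the 3 members. Positions are counted from 1 at the 5′ end, and the first-named miRNA gives the first base. From miR-29a to miR-29c there was 1 substitution, C10U. From miR-29c to miR-29b there were 3 substitutions, G18A, U21G and A22U, and 1 extra base at the 3′ end. miR-29b ended in AGUGUU, its bases 18 to 23, which is known as a nuclear import element of human miR-29b. Of the 349 listed targets 1 ended in these 6 letters, which is 0.287%, and localization in the cell was not measured here. The GC content was 40.9% for miR-29a, 34.8% for miR-29b and 36.4% for miR-29c.

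The members come from a pair of clusters, placed here by matching the listed targets to RefSeq hairpins of the build GRCr8. Mir29a lies at chr4:60617955-60618042 and Mir29b1 at chr4:60618334-60618414, both on the minus strand with 291 bases between them. Mir29b2 lies at chr13:109098831-109098911 and Mir29c at chr13:109099359-109099446, both on the plus strand with 447 bases between them. The chromosome 13 hairpins lie within the span of the long noncoding RNA gene LOC102550527, whose exons were not used here. The sequence of miR-29b is in both Mir29b1 and Mir29b2, so 1 probe measured the product of both loci.

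Each probe had 9 repeat spots on an array, laid out as 3 spots in each of 3 sections of the array rows, here called first, middle and last. Density is the mean pixel brightness of a spot in scanner units. An SD over repeat spots is therefore a technical error, and with 1 array per group a difference could not be set against the spread between rats. Treatment and array cannot be told apart. The tissue was measured in bulk, so a change in the share of cells that hold a miRNA and a change in the amount per cell cannot be told apart. A spot counted as above background when its density passed 278 (vehicle) or 179 (alcohol), and a miRNA was detected when at least 5 of its 9 spots did so. By this rule 150 miRNAs were detected on both arrays, the 3 members among them. For these 150 the median density was 952 (vehicle) and 1951 (alcohol), and the median coefficient of variation of raw density over spots was 9.10% and 6.38%. Precision is limited by the number of arrays.

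The density of rno-miR-29b on the vehicle array ran from 271 to 728 over the 9 spots, with a median of 318. On the alcohol array its lowest spot was 5596, its median 6615 and its highest 7058. The arrays did not overlap, and every alcohol spot was far brighter than every vehicle spot. On the vehicle array 8 of 9 spots were above background, several of them barely, so the vehicle level is the less certain of the pair. After background correction and cyclic loess normalization the signal was 363 for vehicle and 4640 for alcohol. Alcohol over vehicle, the log2 ratio was 3.67 ± 0.74 (SD, n = 9 spots), which is 12.8-fold. Over the other settings it ran from 3.04 to 4.90, and it was 4.57 without normalization. Single spot positions gave log2 ratios from 2.58 to 4.46, all 9 of them above 0.

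The density of rno-miR-29c on the vehicle array ran from 1823 to 4968, with a median of 2703. On the alcohol array its lowest spot was 4404, its median 12143 and its highest 13143. The arrays overlapped only through the lowest alcohol spot, which had uneven pixels (pixel SD 2094), and the other 8 alcohol spots lay at 11057 or above. The normalized signal was 3383 for vehicle and 9600 for alcohol. The log2 ratio was 1.50 ± 0.46 (SD, n = 9 spots), which is 2.84-fold, and all 9 positions were above 0. Over the other settings it ran from 0.60 (scaled to the median of the detected miRNAs) to 2.14 (scaled to 5S rRNA). Without the uneven spot, an alternative chosen after seeing the data, it was 1.60.

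The density of rno-miR-29a on the vehicle array ran from 17763 to 22833, with a median of 21252. On the alcohol array its lowest spot was 19653, its median 21254 and its highest 22159. The arrays overlapped, with every alcohol spot inside the wider vehicle range, and both medians were alike before normalization. The normalized signal was 18883 for vehicle and 23165 for alcohol. The log2 ratio was 0.29 ± 0.076 (SD, n = 9 spots), of which the normalization contributed 0.28. It was 0.014 without normalization, and it was below 0 under a pair of scalings, at -1.20 (median of the detected miRNAs) and -0.95 (75th percentile). Both scalings move every miRNA by the same amount, so their signs alone do not place miR-29a against the other miRNAs. Across scalings miR-29a thus has no fixed direction, while miR-29b and miR-29c were higher on the alcohol array under each of these scalings.

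**Figure D1:**
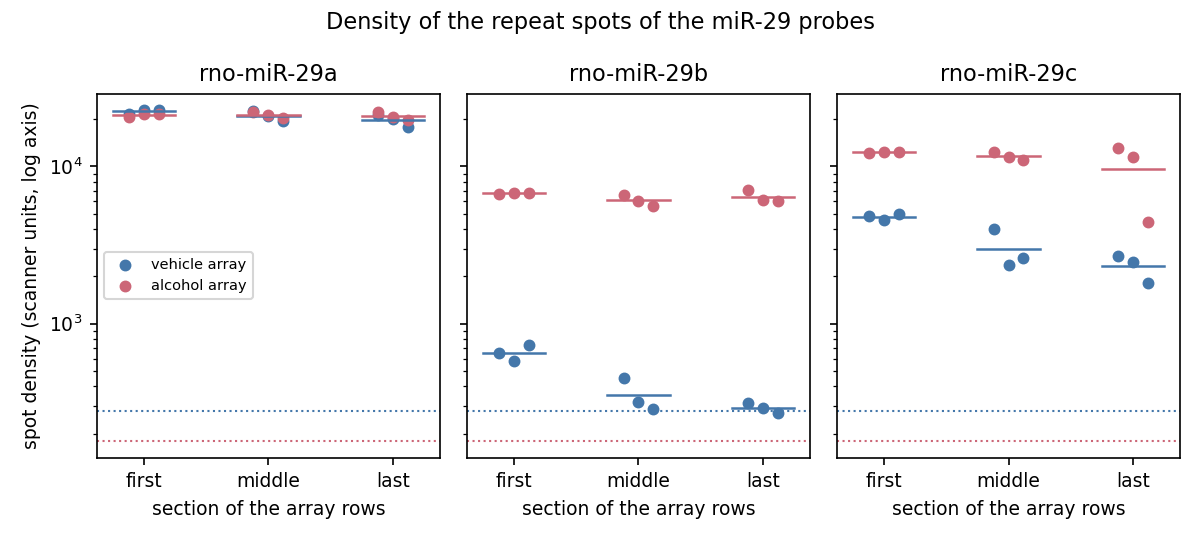
Density of the 9 repeat spots of each miR-29 probe, in scanner units on a log axis, by section of the array rows. Points are spots, short lines are means of 3 spots and dotted lines are the background limits of 278 for vehicle and 179 for alcohol. The arrays overlap for miR-29a, which has no fixed direction across scalings, are apart for miR-29b, and are apart for miR-29c but for 1 uneven alcohol spot at 4404.

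A miRNA counted as higher when it was detected on at least 1 array, reached a normalized signal of 400 on the brighter array, and exceeded vehicle by at least 1.3-fold. All 3 members passed the filter on detection and signal. Of the 3 members 2 were higher by this rule, miR-29b and miR-29c, beside 33 of 125 miRNAs tested (26.4%). At 2-fold the same 2 of 3 members were higher, beside 11 of 125 (8.8%). Among the 125, miR-29b had the highest ratio, miR-29c ranked 7 and miR-29a ranked 37. The background itself moved with the scaling. With 33 miRNAs at least 1.3-fold higher and 26 at least 1.3-fold lower, 55.9% of calls were higher. Without normalization 85 of 128 tested miRNAs were higher and 8 lower (91.4% of calls higher). After scaling to the calibration spikes 94 of 131 were higher and 4 lower (95.9%). Scaling to 5S rRNA gave 106 of 135 higher and 2 lower (98.1%). Under these settings most tested miRNAs were higher, so a count of 2 of 3 members does not set the family apart. Median scaling gave 12 higher and 70 lower of 99 tested (14.6%). The 75th percentile gave 21 and 56 of 102 (27.3%). With the mismatched control baseline subtracted the split was 23 and 28 of 104 (45.1%). In the authors' processed signal it was 25 and 33 of 113 (43.1%).

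Relative to the median of the 150 detected miRNAs, the log2 ratio of miR-29b was higher by 3.74, and by 3.33 to 4.28 over 14 other settings. That of miR-29c was higher by 1.57, and by 1.25 to 2.01 over the same settings. That of miR-29a was higher by 0.36, with a range from -0.55 to 0.49. The sign for miR-29a thus turned even against the other miRNAs. Before normalization the median log2 ratio of the 150 was 0.57, while that of miR-29a was 0.014.

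On each array miR-29a was the brightest member, miR-29c the next and miR-29b the dimmest. Brightness also depends on the probe, so this is no order of amounts. On the vehicle array the spots of the members did not overlap with each other. On the alcohol array the uneven spot of miR-29c, at 4404, lay below the spots of miR-29b, whose highest was 7058. The other spots kept the members apart. Among the 349 miRNAs, miR-29b ranked 107 in vehicle density and 37 in alcohol density. The rank of miR-29c went from 43 to 18 and that of miR-29a from 9 to 6.

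The members were also compared position by position, since a difference between 2 ratios is not moved by any constant scaling of the arrays. The log2 ratio of miR-29b exceeded that of miR-29a by 3.38 ± 0.67 (SD, n = 9 positions), with a range of 2.38 to 4.03. That of miR-29c exceeded that of miR-29a by 1.21 ± 0.43 (SD, n = 9 positions), with a range of 0.61 to 1.74. That of miR-29b exceeded that of miR-29c by 2.17 ± 0.55 (SD, n = 9 positions), with a range of 1.54 to 3.42. All 9 positions gave the same order in each comparison, so the members changed unequally between the arrays by more than the spread over spots. Before normalization these differences were 4.56, 1.80 and 2.76, larger than after it, since the normalization moved the log2 ratio by 0.28 for miR-29a, by -0.31 for miR-29c and by -0.90 for miR-29b.

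The spots of miR-29b and miR-29c were not evenly bright across the vehicle array, a pattern looked for after seeing the data. The mean vehicle density of miR-29b was 653 in the first section, 353 in the middle section and 292 in the last. For miR-29c it was 4776, 2997 and 2328, and for miR-29a 22392, 20964 and 19661. On the alcohol array miR-29b stood at 6744, 6084 and 6420, with no such fall. There miR-29c stood at 12278, 11632 and 9660, and its last section holds the uneven spot. For miR-29b the log2 ratio was accordingly 2.77 in the first section, 3.89 in the middle and 4.36 in the last. For miR-29c it was 1.09, 1.74 and 1.69, with the uneven alcohol spot again in the last section. For miR-29a it was 0.21, 0.30 and 0.37. The ratio of miR-29b was thus lowest where its vehicle spots were brightest and clearest of background. When each section was normalized on its own, miR-29b stood at 3.04, 3.89 and 4.14.

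On the vehicle array the first section was brighter than the last for 145 of the 150 miRNAs, with a median difference over the 150 of 0.20 on the log2 scale. On the alcohol array this held for 78 of 150, with a median difference of 0.0029. Members miR-29b and miR-29c had among the largest vehicle differences, 1.16 (rank 2 of 150) and 1.06 (rank 4), while miR-29a at 0.19 was close to the median (rank 77). For alcohol, miR-29c with its uneven spot also had a large difference, 0.49 (rank 3), while miR-29b was at 0.075 and miR-29a at 0.037. A difference above 0.5 was found for 27 of 150 miRNAs on the former array and for 2 on the latter. Empty spots were far more even, with mean vehicle densities of 204 in the first section, 207 in the middle and 198 in the last. Across the 150 miRNAs, the vehicle difference between first and last section and the unnormalized log2 ratio in the middle section, which share arrays but no spots, were correlated with r = 0.56 (Pearson) and rho = 0.52 (Spearman). Without the members r was 0.49 and rho 0.50 (n = 147), and miRNAs on the same arrays are not independent replicates. The part of this unevenness in the miR-29 ratios was not tested.

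**Figure D2:**
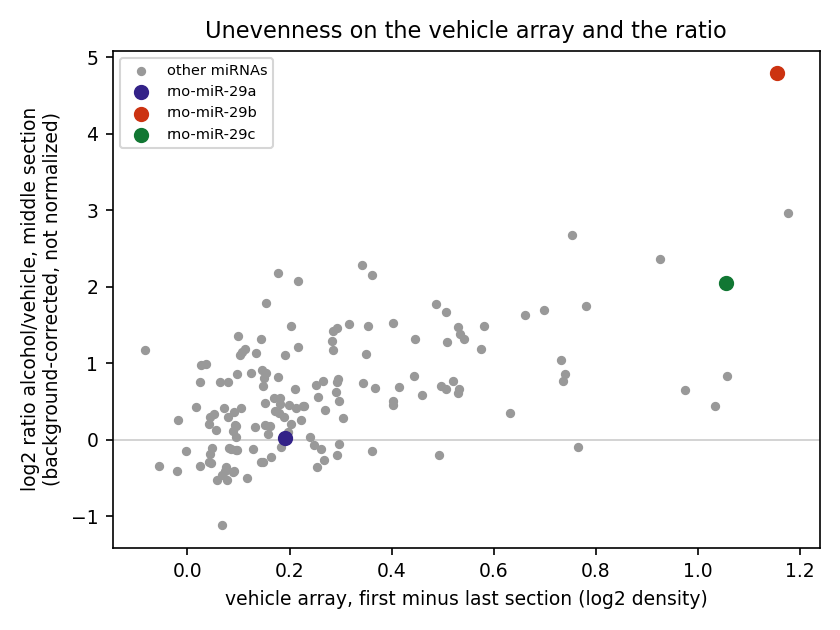
For each of the 150 miRNAs detected on both arrays, the difference in log2 density between the first and last section of the vehicle array (horizontal axis) and the unnormalized log2 ratio of alcohol over vehicle in the middle section (vertical axis). Grey points are other miRNAs. miR-29b and miR-29c lie at the right, at 1.16 and 1.06, and miR-29a at 0.19 lies with most miRNAs.

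Other seed families give a scale for the spread within miR-29. Of 8 families with at least 3 members detected on at least 1 array, miR-29 had the widest range of log2 ratios, 3.38, and also the widest before normalization, 4.56. The next widest was the miR-30 family, with a range of 1.78 over 6 members. The range of miR-29 rests on miR-29b, several of whose vehicle spots lay near background. Between miR-29c and miR-29a alone the difference was 1.21, less than the range of miR-30. The narrowest was the family of miR-17, miR-20a, miR-93 and miR-106b, with 0.65. Among the 8 families the median log2 ratio was highest for miR-29, at 1.50, next for the family of miR-99a, miR-99b and miR-100, at 0.84, and lowest for that of miR-25, miR-92a and miR-92b, at -0.41. It was 0.46 for miR-30, 0.29 for miR-181 and -0.21 for let-7 with miR-98, and these medians move with the scaling of the arrays. That of miR-29 stayed above 0 in every setting run, since it is the ratio of miR-29c.

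Close relatives were defined as pairs with 1 seed and at most 4 substitutions, both detected on the alcohol array. Detection on the vehicle array was not required, so a pair dim there could enter, as miR-7b with miR-7a did. The log2 ratio of the relative dimmer on vehicle was set against that of the brighter one, an order that by itself favours positive differences. Of 54 such pairs, which share probes, the pairs within miR-29 ranked 1 (miR-29b and miR-29a), 2 (miR-29b and miR-29c) and 6 (miR-29c and miR-29a). Outside miR-29 the dimmer relative had the higher ratio in 33 of 51 pairs, with a median difference of 0.17 and a range of -0.92 to 1.74. With the dimmer relative taken from the mean of both arrays the count was 29 of 51, and before normalization, ordered on vehicle, it was 42 of 51. Control pairs of a matched and a mismatched probe were read beside this. Of 15 pairs whose matched probe was detected on both arrays, the mismatched probe was detected on neither array in 9, on 1 array in 4 and on both in 2. The background limit was itself set from mismatched control spots, so most of them fall below it by construction. The tally therefore does not measure how often a mismatched probe binds. Among the 9, Ctr07-3M05 stood at 244 and 178 beside a matched partner at 28132 and 23742. In the 2 pairs with both probes detected on both arrays the mismatched probe was brighter on the alcohol array, and all control pairs named here were chosen after their values were seen. Density went from 304 (vehicle) to 2749 (alcohol) for Ctr09-3M10, while its matched partner stood at 46287 and 33598. For PUC2MM it was 6435 and 11404, beside 13556 and 14770 for its matched partner. Whether the miR-29b probe binds miR-29a or miR-29c, and the part of this in the miR-29 ratios, was not tested.

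The miRNAs most like a member were taken as the 3 nearest by Euclidean distance in the pair of normalized log2 signals, which rests on 2 arrays. For miR-29a they were let-7f (distance 0.28), let-7c (0.37) and miR-9 (0.37). For miR-29c they were miR-107 (0.77), miR-23a (0.80) and miR-30d (0.89), whose log2 ratios of 0.44, 0.44 and 0.26 were all below that of miR-29c. For miR-29b the nearest were miR-335 (1.29), miR-27a (1.40) and miR-30e (1.70), at distances that show how few miRNAs came near it. Of these, miR-335 had a log2 ratio of 1.90 ± 0.68, miR-27a of 1.84 ± 0.51 and miR-30e of 1.28 ± 0.26 (SD, n = 9 spots each). Their vehicle differences between first and last section were 1.18 (rank 1 of 150), 0.75 (rank 10) and 0.36 (rank 39). Of the 10 largest ratios among the 150, miR-29b and miR-29c included, 7 had a vehicle difference above 0.5, beside 27 of all 150. The unevenness was thus not particular to the members. Among the 20 other miRNAs closest to miR-29b in vehicle signal, log2 ratios ran from -1.35 to 0.54 with a median of 0.067. None could reach miR-29b, since its ratio was the highest of the 125 tested. For miR-29c the 20 closest ran from -0.80 to 0.55. It ranked 7 of the 125, so few miRNAs could have reached it. For miR-29a 1 of 20 reached its ratio, miR-9, whose ratio of 0.72 had an SD of 2.57 because of 1 dim spot.

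Of the passenger strands of the same hairpins, miR-29a* and miR-29b-1* were not detected on either array by the reported rule. miR-29a* had 0 of 9 vehicle spots and 1 of 9 alcohol spots above background, and miR-29b-1* had 0 on both. With the lower vehicle limit of 234 set from empty spots, 8 of 9 vehicle spots of miR-29a*, 7 of 9 of miR-29b-1* and 9 of 9 of miR-29b-2* passed, so these vehicle calls depend on the rule. miR-29b-2* had 3 of 9 vehicle spots and 9 of 9 alcohol spots above background, with densities of 275 ± 15.2 and 276 ± 15.8 (SD, n = 9 spots). These like densities lie on unlike backgrounds, with limits of 278 and 179. The log2 ratio of miR-29b-2* was -0.037 ± 0.22 (SD, n = 9 spots), or 0.48 before normalization. miR-29c* was detected on both arrays at 329 ± 17.7 and 407 ± 29.5, and its log2 ratio was -0.15 ± 0.15 (SD, n = 9 spots), or 0.74 before normalization. Thus miR-29c* has no fixed direction, and its ratio lay below that of miR-29c, 1.81 before normalization, on either scale.

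Members were also set beside miRNAs of like GC content, because miRNAs poor in GC had higher ratios on these arrays. Across the 150 miRNAs the slope was -0.033 log2 units per percent of GC. The 32 other miRNAs within the GC range of the members, 34.8% to 40.9%, had log2 ratios from -0.98 to 1.28 with a median of 0.12. Both miR-29b and miR-29c lay above that range, and miR-29a within it. With the GC trend removed the log2 ratios were 3.24 for miR-29b, 1.12 for miR-29c and 0.061 for miR-29a.

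Cell type markers were read on the same normalized scale. Of 3 neuronal miRNAs, 3 were detected on both arrays, with a summed signal of 62785 for vehicle and 75326 for alcohol. The brightest on vehicle, miR-128, had a log2 ratio of 0.025, while on alcohol miR-9 was brighter (29945 against 28424). Most of the difference in the sum came from miR-9, which has 1 dim vehicle spot (290, against a median of 37278), and without miR-9 the sums were 44567 and 45381. Of 3 vessel miRNAs, 3 were detected on both, with sums of 8515 and 10028. The brightest, miR-126, made up most of both sums (6443 and 7180) and had a log2 ratio of 0.16. The log2 ratio was 0.23 for miR-143 and 0.60 for miR-145, the latter above 1.3-fold. The neuronal and vessel markers were thus present on both arrays, as the tissue label implies, with sums that differed less between arrays than the signals of miR-29b or miR-29c. Of 2 oligodendrocyte miRNAs, 0 passed the detection rule for vehicle (2 by the limit from empty spots) and 2 for alcohol, with sums of 321 and 693. The brighter, miR-338, had 0 of 9 vehicle spots above background. Its signal was 3.09-fold higher on alcohol under this normalization, counted against its own vehicle signal of 177. As that vehicle level was not detected by this rule, the fold is uncertain and is no bound. The other, miR-219-5p, had signals of 144 and 145, with 1 of 9 vehicle spots and 9 of 9 alcohol spots above background. A further miRNA known from oligodendrocytes, miR-219-2-3p, named after its values were seen, was far brighter and detected on both arrays, at 2584 and 2170 with a log2 ratio of -0.25. With no detected vehicle level for miR-338 and miR-219-5p by the reported rule, these values do not show whether the oligodendrocyte miRNAs moved together. Of 4 blood and immune miRNAs 0 were detected on either array, with sums of 401 and 393, miR-223 being the brightest. Under the limit from empty spots 4 of 4 passed for vehicle and 0 for alcohol, as 348 of all 349 miRNAs passed for vehicle by that rule. Of 4 muscle miRNAs only miR-133a was detected, on the vehicle array, with sums of 474 and 400, and miR-1, miR-133b and miR-206 were not, while by the limit from empty spots 4 of 4 passed for vehicle and 0 for alcohol. The liver miRNA miR-122 was detected on both, at 685 and 153. The part of the oligodendrocyte and vessel markers and of miR-122 in the miR-29 ratios was not tested.

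**Figure D3:**
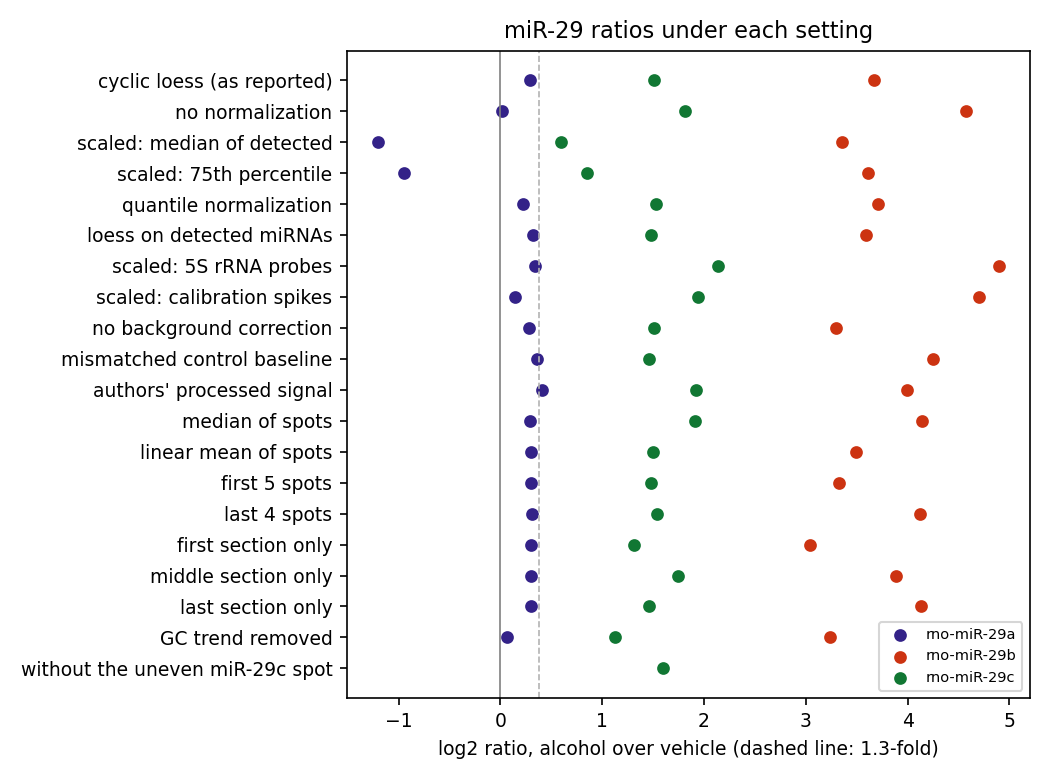
Log2 ratio of alcohol over vehicle for each member under the reported setting and each alternative, 1 point per setting. The solid line is 0 and the dashed line is 1.3-fold. miR-29b runs from 3.04 to 4.90 and miR-29c from 0.60 to 2.14 over the alternatives, and miR-29a runs from -1.20 to 0.41, below 0 under the median and 75th percentile scalings.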

How the data were processed

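For each array the authors deposited the intensity of every spot, the mean pixel density without background subtraction. The authors also deposited a processed signal per probe from the same 2 arrays, with background subtracted, repeat spots averaged and a cyclic normalization, whose tool and settings are not given in the sources used here. It served as an alternative.

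Intensity was background-corrected with normexp (offset 50), fitted on the 3968 foreground spots of each array, in limma 3.58.1 under R 4.3.3. Log2 values were averaged over the 9 spots of a probe, followed by cyclic loess between arrays (span 0.7, 3 iterations) on the 349 miRNA probes. The SD of a ratio is over spot positions. The background limit was the median of 88 mismatched control spots plus 3 median absolute deviations. Tables and figures used Python 3.11.15, numpy 2.4.6, pandas 2.3.3 and matplotlib 3.10.9. The background correction and normalization were tested on simulated data, with equal numbers of miRNAs raised and lowered 2-fold. The simulation held no unevenness between array sections and no change as large as that of miR-29b. It therefore does not cover these features of the arrays.

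With 1 array per group no p-value was computed. Members and lists were chosen with earlier results of these data known. Named miRNAs were the 3 members, the passenger strands of their hairpins, the 3 nearest miRNAs to each member, the seed families with the widest and the narrowest range, and the cell type markers. Any other miRNA or control named was picked after seeing its values. Alternatives covered background correction, scaling between arrays, the summary and choice of repeat spots, the GC trend, the detection rule and the thresholds. The study's other experiments were not analysed here.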

Additional observations from a re-analysis of the deposited data

How the results depend on the processing

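No paired analysis was possible because the vehicle and alcohol groups hold 1 array each. Of 19 settings for the log2 ratios other than the reported one, 15 were planned. The 3 array sections and the omission of the uneven miR-29c spot were chosen after seeing the data. The thresholds and the detection rule were varied apart from these. The log2 ratio of miR-29b stayed above 1.3-fold in all 18 settings that apply to it (3.04 to 4.90) and that of miR-29c in all 19 (0.60 to 2.14). That of miR-29a was above 0 in 16 of 18 and reached 1.3-fold in 1, the authors' processed signal. The 3 differences between members were above 0 in every setting run.

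Without normalization the log2 ratio was 0.014 for miR-29a and 4.57 for miR-29b. With median scaling it was -1.20 for miR-29a and 0.60 for miR-29c, and with the 75th percentile -0.95 and 0.85. Quantile normalization gave 0.22, the authors' processed signal 0.41 and removal of the GC trend 0.061 for miR-29a. Scaling to the calibration spikes gave 0.14 for miR-29a and 4.70 for miR-29b, and scaling to the 5S rRNA probes 4.90 for miR-29b and 2.14 for miR-29c. Without normalization and with the median, 75th percentile, 5S rRNA and spike scalings, which differ by a constant, miR-29b exceeded miR-29a by 4.56, miR-29c exceeded miR-29a by 1.80 and miR-29b exceeded miR-29c by 2.76. The last difference was 2.78 with the mismatched control baseline subtracted.

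The 33 higher and 26 lower miRNAs became 12 and 70 with median scaling, 21 and 56 with the 75th percentile, 106 and 2 with 5S rRNA, 94 and 4 with the spikes, 85 and 8 without normalization, and 11 and 5 at 2-fold. The detection limit from empty spots passed 348 miRNAs for vehicle and 184 for alcohol, against 151 and 196 as reported, and left the 3 members detected on both arrays. The median log2 ratio of all 349 miRNAs was 0.0067 as reported, -1.43 with median scaling, -0.22 without normalization, -0.13 with loess on detected miRNAs and -1.18 with the 75th percentile. Apart from these constructions the cause was not tested. The vehicle level of miR-29b is limited by its distance from background, and 1 array per group limits every ratio.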
